A study of Mus musculus with 12 samples.

Results

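The 48 genes described here encode the proteins that license replication origins, unwind and copy DNA, supply its deoxynucleotides and reassemble chromatin on the new strands. They were chosen by name, with earlier results of these data known, and all 48 were found among the 45706 genes of the expression table. All 48 also entered the 18909 genes tested, those with a mean of at least 0.1 TPM over the libraries, where TPM is transcript abundance corrected for length and scaled to 1000000 per library. For the description they were sorted into 8 roles, from origin licensing to the G1/S control genes *Ccne1*, *Ccne2* and *E2f1*.

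Replication begins when the origin recognition complex, CDC6 and CDT1 load the MCM2 to MCM7 ring onto DNA in G1. CDC45 and the GINS complex then turn that ring into an active helicase, and DNA polymerases copy the unwound strands behind it. Most of these genes are expressed mainly in dividing cells and are switched on together by E2F transcription factors as cells enter S phase, so their transcripts are widely used as markers of proliferation. Ribonucleotide reductase, which makes the deoxynucleotides, needs oxygen to form the radical in its RRM2 subunit.

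The libraries came from BN1-Tie2-EGFP cells, an immortalized line from a mouse hepatoblastoma (HB) of FVB/N origin, driven by mutant β-catenin and mutant NRF2. Cdkn2a, which encodes a brake on entry into S phase, was inactivated in part, by the paper's account, through CRISPR targeting in the tumor. All groups shared this Cdkn2a-targeted genotype. All also carried an EGFP reporter under the endothelial Tie2 promoter, introduced as a pool of stable clones, and they represent 1 tumor line and not a set of independent tumors. The 4 groups of 3 libraries each were unsorted cells in normoxia with 21% O2 (UN), unsorted cells kept in 1% O2 for 2 days (UH), EGFP+ cells that had been sorted after hypoxia and expanded for about 10 days in normoxia (SN), and those sorted cells after a return to 1% O2 for 2 days (SH). The study's text calls the 3 libraries of a group independent replicas, without saying in the labels or methods whether they were separate cultures, and the p-values below measure the spread between them.

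Library to library correlations of log2(TPM + 1) over the tested genes ran from 0.977 to 0.991 within groups and from 0.903 to 0.960 between groups. The hypoxia labels were checked with 10 genes that low oxygen is known to induce, of which 9 were called higher (over 2-fold at an adjusted p below 0.05) in each of UH vs UN and SH vs SN. Other features of the libraries moved along with the groups. Mitochondrially encoded transcripts took 5.18 to 7.55% of all TPM in UN and 7.64 to 8.38% in SN, but 1.67 to 2.53% in UH and 2.66 to 4.68% in SH. The summed TPM of 8 fibroblast marker genes was 1013 to 4314 in UN, 4547 to 6807 in UH, 165 to 185 in SN and 41.1 to 65.4 in SH. That sum was carried in UH by the collagen genes *Col1a1*, *Col1a2* and *Col3a1*, which were called higher in UH vs UN, whereas *Pdgfra*, *Dcn* and *Pdgfrb* were called lower, with means of 142, 172 and 44.7 TPM in UN and 28.4, 53.8 and 15.2 in UH. A list of 8 hepatocyte and hepatoblast markers summed to between 96.4 and 208 TPM in every library, with *Epcam* at 0 in all SN and SH libraries and *Ttr* at 0 in all SH libraries. Most of it was *Krt18*, with group means of 79.6 to 128 TPM, and other members moved in opposite directions, since in SN vs UN *Krt8* (-3.43) and *Hnf4a* (-1.86) were called lower and *Afp* (1.86) higher, and *Hnf4a* (-1.97) was called lower in UH vs UN. Endothelial markers summed to 2.12 to 4.27 TPM in UN, 19.8 to 29.7 in UH, 5.03 to 5.86 in SN and 9.41 to 13.1 in SH. In UH most of that sum was *Flt1*, with a mean of 22.96 TPM. *Tek*, the gene of the sorting reporter's promoter, went otherwise, with means of 0.13 TPM in UN, 0.16 in UH, 2.49 in SN and 3.04 in SH. Blood cell markers summed to 5.14 to 9.76 in UN, 21.5 to 22.6 in UH, 9.73 to 14.5 in SN and 58.8 to 63.3 in SH. *Cd68* among them was called higher in both hypoxia comparisons and made up most of the SH sum, with a mean of 53.9 TPM. *Ptprc*, a general blood cell marker, was at a mean of 0.054 TPM in SH. The part that these differences in composition play in the results below was not tested, and in bulk RNA fewer cells in S phase and less RNA per cell cannot be told apart.

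Replication genes fell together in hypoxia, in unsorted and in sorted cells. Their TPM values summed to 2956 ± 54.1 in UN and to 858 ± 37.9 in UH (mean ± SD, n = 3), and to 3469 ± 304 in SN and 1212 ± 178 in SH. By library, the sums ran from 2894 to 2992 in UN, 832 to 901 in UH, 3120 to 3674 in SN and 1069 to 1411 in SH, so no hypoxic library reached any normoxic library. In 46 of the 48 genes the mean of each hypoxic group lay below the means of both normoxic groups. The share of all genes with that order of means was not counted. In 42 of the 48, all 6 hypoxic libraries lay below all 6 normoxic libraries, a separation found in 13.1% of all genes tested. *Orc1*, *Cdc45*, *Pold3*, *Rfc4*, *Ccne2* and *E2f1* were the exceptions.

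**Figure D1:**
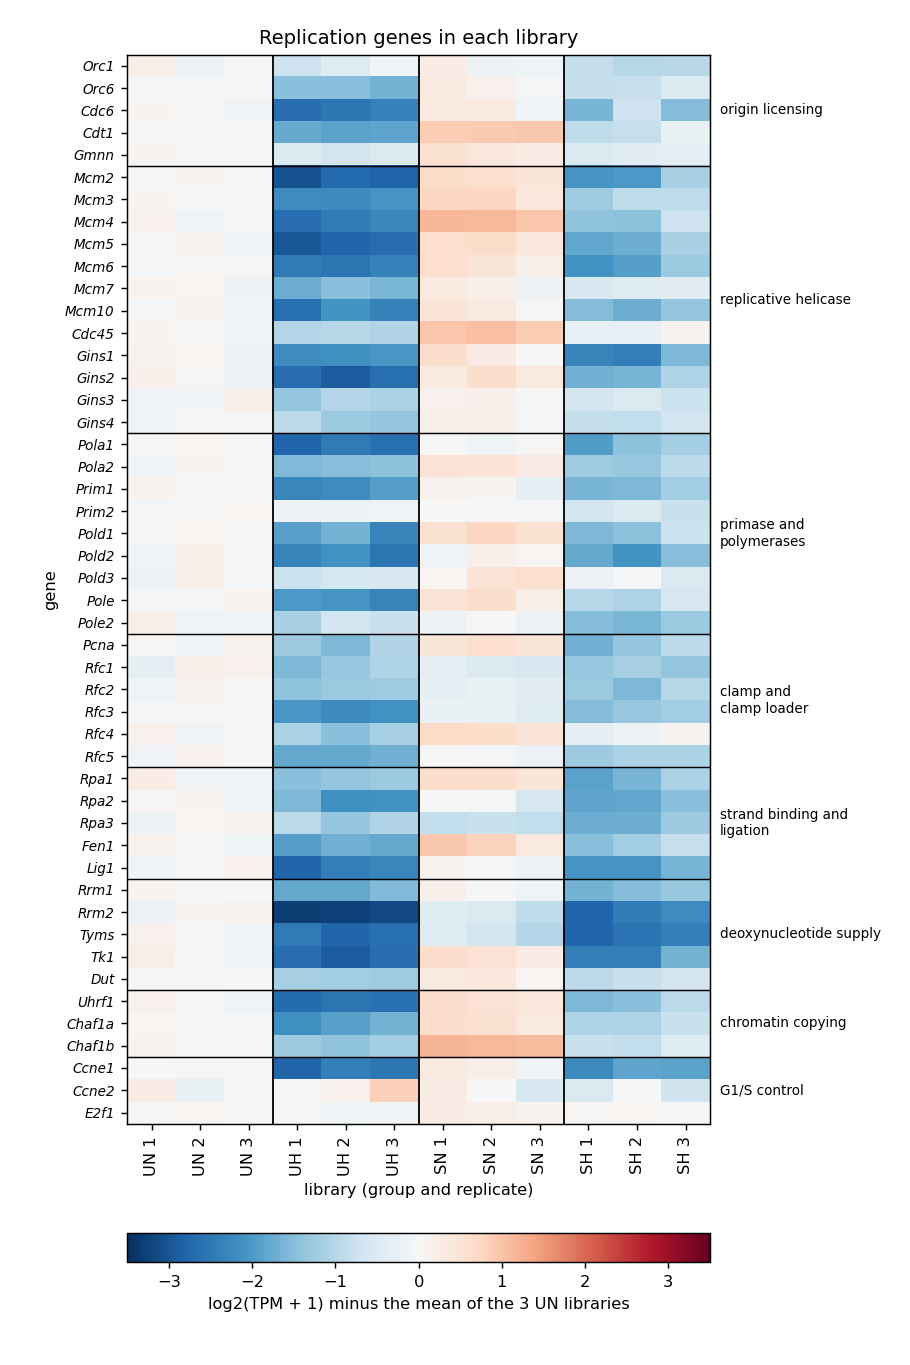
Level of each of the 48 replication genes (rows, by role) in each of the 12 libraries (columns), as log2(TPM + 1) minus the mean of the 3 UN libraries, with blue for lower and red for higher. UH and SH columns are blue over nearly all rows, whereas *E2f1*, *Prim2* and *Ccne2* stay pale in UH.

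In the limma fit across all genes, a gene was taken to pass at an adjusted p below 0.05 and was called where it also changed over 2-fold on the log2(TPM + 1) scale. In UH vs UN, 41 of the 48 genes were called lower and 0 higher, whereas 11.8% of all genes tested were called lower and 5.46% higher. At the adjusted p alone 44 passed as lower, against 33.5% of all genes, and 0 passed as higher, against 13%. Their median log2 fold change was -1.82, and that of all genes tested was -0.19. In SH vs SN, 34 were called lower and 0 higher, where the background was 5% and 7.47%, and 46 passed as lower and 0 as higher, where it was 19.5% and 21.5%. The median log2 fold change was -1.49 for the replication genes and 0.03 for all genes. In both hypoxia comparisons 33 of the 48 were called lower. Of all genes at most 5% can be, the share called lower in SH vs SN. Of all changes ranked from most negative to most positive, the lowest 5% held 30 of the 48 genes for unsorted and 34 for sorted cells.

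**Figure D2:**
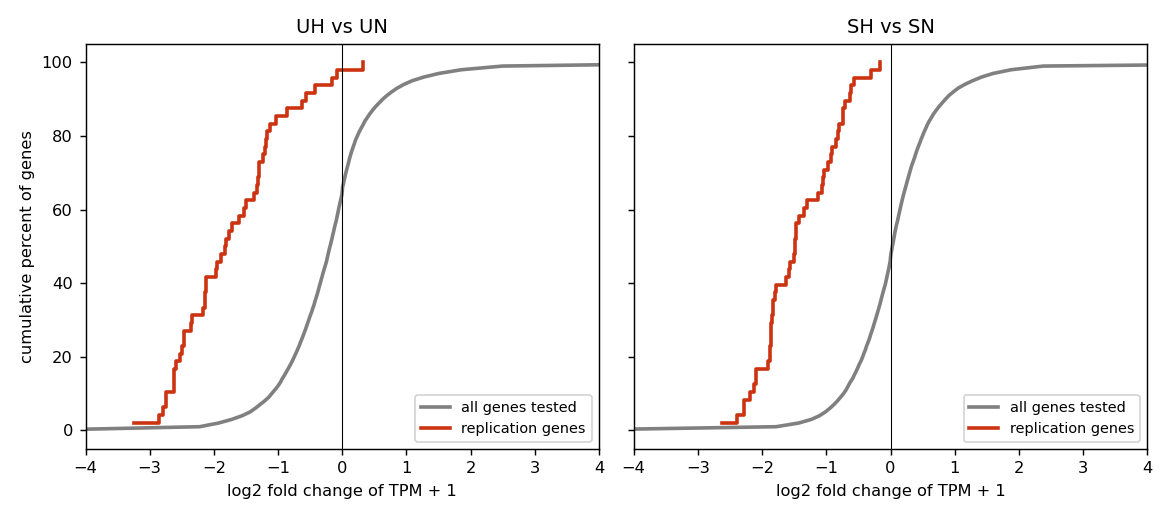
Cumulative percent of genes (y axis) at or below each log2 fold change of TPM + 1 (x axis) for the replication genes (red) and for all genes tested (grey), in UH vs UN on the left and SH vs SN on the right. The red curve lies to the left of the grey one over most of its range, with medians of -1.82 against -0.19 and of -1.49 against 0.03.

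A pair of libraries stood apart within their groups. SH replicate 3 was the highest SH library for 38 of the 48 genes and had the largest mitochondrial share of its group, at 4.68%. SN replicate 3 was the lowest SN library for 42 of the 48. Without SH replicate 3, 35 genes were called lower in SH vs SN with a median of -1.60, and without SN replicate 3, 36 were called with a median of -1.57.

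Promoter sequences are shown because E2F factors control many of these genes and because nearly all of the genes moved together. RefSeq windows on GRCm38.p6, the build named mm10 in the labels, reach from 250 bases before to 50 bases after the annotated transcript start and were available for 39 of the 48 genes. Each was searched on both strands for 4 E2F motifs, namely TTTCCCGC or TTTCGCGC or TTTGCCGC or TTTGGCGC, and matches are in capitals. *Mcm5* and *Mcm6*, which encode subunits of the helicase ring, are given in full and 60-base stretches are given for *Mcm3*, for the initiation genes *Cdc6* and *Orc1*, for the polymerase gene *Pola1* and for the clamp loader gene *Rfc3*. In *Mcm5* and *Mcm6*, the longer run of capitals holds overlapping matches on opposite strands. The *Mcm5* window lies at chr8:75109259-75109558, plus strand, that of *Mcm6* at chr1:128359656-128359955, minus strand. The stretches lie at chr1:20820263-20820322, minus strand (*Mcm3*), chr11:98907986-98908045, plus strand (*Cdc6*), chr4:108579400-108579459, plus strand (*Orc1*), chrX:93632261-93632320, minus strand (*Pola1*) and chr5:151651181-151651240, minus strand (*Rfc3*).
Mcm5: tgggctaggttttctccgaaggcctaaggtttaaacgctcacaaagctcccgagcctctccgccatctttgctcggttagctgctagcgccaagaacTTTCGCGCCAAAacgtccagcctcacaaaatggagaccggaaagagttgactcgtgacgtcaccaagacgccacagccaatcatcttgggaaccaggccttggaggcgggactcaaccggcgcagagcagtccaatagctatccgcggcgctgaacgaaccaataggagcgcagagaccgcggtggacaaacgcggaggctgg
Mcm6: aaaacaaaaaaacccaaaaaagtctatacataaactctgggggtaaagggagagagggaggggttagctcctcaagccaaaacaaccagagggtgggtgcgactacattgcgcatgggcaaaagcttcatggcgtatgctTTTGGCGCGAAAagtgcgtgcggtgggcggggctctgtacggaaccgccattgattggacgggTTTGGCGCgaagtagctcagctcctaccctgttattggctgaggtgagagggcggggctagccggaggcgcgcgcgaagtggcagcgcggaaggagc
Mcm3: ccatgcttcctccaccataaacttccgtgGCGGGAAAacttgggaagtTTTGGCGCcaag
Cdc6: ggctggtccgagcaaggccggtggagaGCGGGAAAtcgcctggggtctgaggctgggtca
Orc1: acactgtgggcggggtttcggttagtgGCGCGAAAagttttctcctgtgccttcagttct
Pola1: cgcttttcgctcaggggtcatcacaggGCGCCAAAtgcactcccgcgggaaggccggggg
Rfc3: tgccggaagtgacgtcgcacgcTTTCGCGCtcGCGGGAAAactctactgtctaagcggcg

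An E2F match was found in 13 of the 39 windows (33.3%), and in 2.32% of all 27025 windows of the table or 3.78% of the 11707 windows of genes tested. The 13 genes were *Orc1*, *Cdc6*, *Cdt1*, *Mcm3*, *Mcm5*, *Mcm6*, *Mcm7*, *Gins3*, *Pola1*, *Pold1*, *Pold3*, *Pole2* and *Rfc3*. The letters CCAAT, a common proximal promoter element, occurred in 23 of the 39 windows (59.0%), against 37.9% of all windows. In UH vs UN the 13 genes with an E2F match had a median log2 fold change of -1.97 (range -2.79 to -0.43), and the 26 without had a median of -1.78 (range -3.24 to -0.083), so the ranges overlapped almost entirely. *Rrm2*, which fell most, had no match in its window, and *Orc1*, which did not pass in UH vs UN, had 1. These matches are descriptions of the letters in the windows and not measured binding sites. Only the first listed window of each gene was searched, so matches near other starts were not counted. In a second gene annotation, the windows of *Cdc6*, *Mcm7*, *Dut* and *E2f1* lay wholly inside the gene. Windows of other genes, *Fen1* and *Lig1* among them, lay wholly before it.

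Origin licensing genes differed widely in their response. Of the 5 genes, 3 were called lower in unsorted and 2 in sorted cells. CDT1 brings the MCM ring to the origin. *Cdt1* was measured at 32.04, 31.1 and 30.5 TPM in UN, at 8.49, 7.83 and 7.93 in UH, at 58.2, 59.5 and 61.4 in SN and at 16.3, 17.3 and 26.2 in SH. It was thus lower in both hypoxic groups, at -1.83 ± 0.15, adjusted p = 1.85e-06 (log2 fold change ± SE) in UH vs UN and at -1.57 ± 0.15, adjusted p = 1.01e-05 in SH vs SN, and the SN values exceeded every other library. CDC6, the ATPase that works with CDT1, fell most of this role in unsorted cells. In UN, *Cdc6* stood at 20.5, 19.5 and 17.7 TPM, in UH at 2.19, 2.52 and 2.91, in SN at 24.6, 24.5 and 17.9 and in SH at 5.58, 11.4 and 6.08. The log2 fold change was -2.52 ± 0.22, adjusted p = 3.66e-06 in unsorted cells (UH vs UN) and -1.47 ± 0.22, adjusted p = 2.82e-04 in sorted cells (SH vs SN), with SH replicate 2 well above the other SH libraries. ORC6, a subunit of the origin recognition complex, gave 37.6, 37.1 and 37.98 TPM in UN, 13.1, 12.96 and 11.3 in UH, 47.1, 41.7 and 36.4 in SN and 20.5, 20.98 and 26.5 in SH, with changes of -1.52 ± 0.13 and -0.85 ± 0.13.

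Geminin, encoded by *Gmnn*, binds and inhibits CDT1 outside G1, and its transcript changed less than that of its target. *Gmnn* averaged 35.8 ± 2.29 TPM in UN, 24.02 ± 1.30 in UH, 47.4 ± 4.67 in SN and 26.8 ± 1.76 in SH (mean ± SD, n = 3). It passed in UH vs UN at -0.56 ± 0.10, adjusted p = 8.39e-04, and in SH vs SN at -0.80 ± 0.10, adjusted p = 8.98e-05, but under 2-fold in each. Within libraries the log2 ratio of *Cdt1* to *Gmnn* went from a mean of -0.20 in UN to -1.57 in UH, a difference of -1.37, and from 0.34 in SN to -0.45 in SH, a difference of -0.79. The libraries did not overlap in either comparison, which gives the exact two-sided permutation p = 0.1, the smallest that 3 against 3 libraries allow, and 0.12 after adjustment over the 24 ratio tests. *Orc1*, for the largest subunit of the origin recognition complex, was the least abundant gene of this role. It averaged 4.33 ± 0.844 TPM in UN and 2.99 ± 0.903 in UH with overlapping libraries (adjusted p = 0.0972), and 4.28 ± 0.926 in SN against 1.76 ± 0.170 in SH, where it passed at -0.93 ± 0.20, adjusted p = 0.00293.

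Replicative helicase genes were all lower in hypoxia. All 12 were called lower in UH vs UN, with a median log2 fold change of -2.26, and 9 of 12 were called and all 12 passed in SH vs SN, with a median of -1.85. *Mcm2* and *Mcm4* spanned the widest range of group means. The library values of *Mcm2* were 72.8, 80.1 and 73.4 TPM in UN and 8.18, 10.7 and 10.03 in UH, against 118, 111 and 102 in SN and 17.2, 18.04 and 33.6 in SH. The UH level was 7.84-fold below that of UN, at a log2 fold change of -2.85 ± 0.21, adjusted p = 8.77e-07, and SH replicate 3 lay well above the other SH libraries. *Mcm4* was measured at 57.3, 48.05 and 50.03 TPM in UN, at 7.25, 8.73 and 9.77 in UH, at 118, 115 and 103 in SN and at 18.9, 18.4 and 30.8 in SH. *Mcm4* fell by 6.03-fold in UH and by 4.92-fold in SH, each against its own normoxic group.

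*Mcm5* and *Mcm3* followed the same order of groups. TPM values of 59.4, 62.7 and 55.3 in UN, 6.75, 7.83 and 8.46 in UH, 88.6, 92.1 and 78.3 in SN and 16.2, 17.4 and 26.2 in SH were recorded for *Mcm5*. In UN, *Mcm3* stood at 106, 98.5 and 95.5 TPM, in UH at 20.9, 20.7 and 22.96, in SN at 167, 164 and 132 and in SH at 41.6, 53.3 and 53.96. Both were highest in SN and lowest in UH. *Mcm6* averaged 90.95 ± 3.13, 15.6 ± 1.13, 121 ± 16.2 and 26.5 ± 8.64 TPM in UN, UH, SN and SH, with log2 fold changes of -2.47 ± 0.18 in UH vs UN and of -2.18 ± 0.18 in SH vs SN.

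*Mcm7* changed least of the 6 ring genes. *Mcm7* was measured at 142, 136 and 115 TPM in UN, at 38.3, 46.6 and 42 in UH, at 164, 147 and 115 in SN and at 88.9, 94.4 and 101 in SH. Its log2 fold change was -1.61 ± 0.13, adjusted p = 2.48e-06 in unsorted cells (UH vs UN) and -0.57 ± 0.13, adjusted p = 0.00541 in sorted cells (SH vs SN), the latter under 2-fold. The composition of the summed TPM of *Mcm2* to *Mcm7*, a per-length scale, was not the same in hypoxia. *Mcm7* made up 25.7 ± 1.52% of that sum in UN and 40.1 ± 2.33% in UH, and 19.5 ± 1.27% in SN and 40.6 ± 4.16% in SH. The share of *Mcm2* went from 14.9 ± 0.861% to 9.11 ± 0.658% in unsorted cells and from 15.3 ± 0.685% to 9.48 ± 2.12% in sorted cells. *Mcm3* kept overlapping shares, between 18.9 and 23.7% in all libraries. The other 5 genes had shares that did not overlap between hypoxia and normoxia in either comparison, each at the exact permutation p = 0.1 (adjusted over 12 tests, 0.12). Shares within a library add up to a fixed total, so a larger share of *Mcm7* lowers those of the others, and these tests are not independent of each other. *Mcm7* hosts 3 microRNAs, *Mir25*, *Mir93* and *Mir106b*, on its own strand and overlaps *Cops6* and *Ap4m1* on the opposite strand. *Cdt1* and *Pole2* overlap protein-coding genes on their own strand, *Gm20388* and *Gm49384*. The kit was stranded, but the strand setting used in counting is not given in the sources used here. The part of such neighbors in the values of *Mcm7*, *Cdt1* and *Pole2* was not tested.

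**Figure D3:**
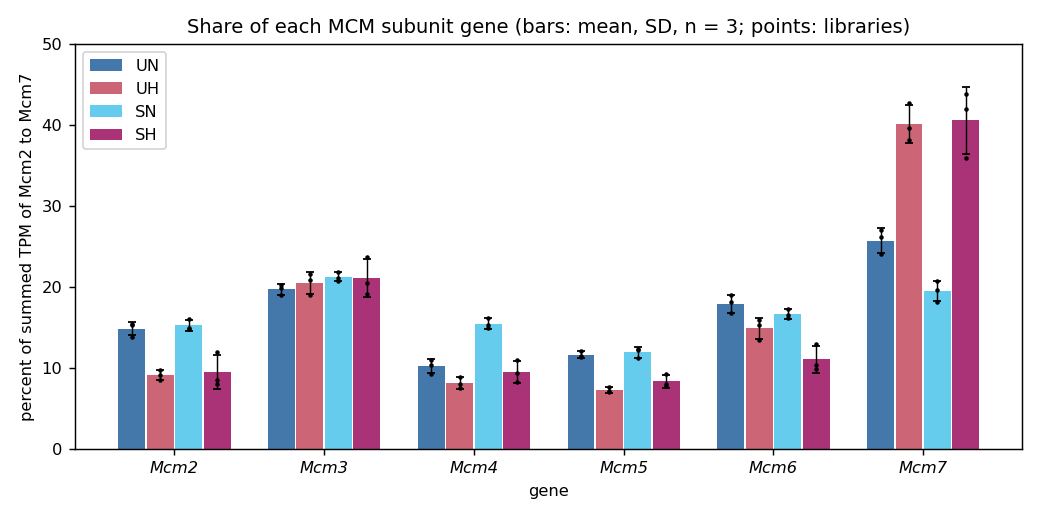
Share of each of *Mcm2* to *Mcm7* (x axis) in their summed TPM (y axis, percent) for UN, UH, SN and SH, with bars for the mean, whiskers for the SD (n = 3) and points for libraries. *Mcm7* is at 25.7% in UN and 40.1% in UH, and at 19.5% in SN and 40.6% in SH, whereas *Mcm2*, *Mcm4*, *Mcm5* and *Mcm6* take smaller shares in hypoxia.

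The remaining helicase genes encode CDC45, the 4 GINS subunits and the initiation factor MCM10. *Gins2* had library values of 69.8, 63.8 and 53.2 TPM in UN, 8.85, 7.34 and 9.08 in UH, 78.7, 94.4 and 79.3 in SN and 18.4, 19.3 and 28.5 in SH. Among GINS genes it fell most in UH vs UN, at -2.74 ± 0.17, adjusted p = 2.47e-07, whereas *Gins1* fell most in SH vs SN, at -2.39 ± 0.22, adjusted p = 1.01e-05. *Gins3* and *Gins4* changed less, by -1.17 and -1.18 in UH vs UN and by -0.75 and -0.92 in SH vs SN on the log2 scale. *Gins1* alone among the helicase genes did not pass in SH vs UH, with 4.08 ± 1.75 TPM in SH and 3.82 ± 0.276 in UH. *Cdc45* averaged 29.2 ± 2.34 TPM in UN, 13.8 ± 0.177 in UH, 58.1 ± 2.87 in SN and 26.2 ± 4.57 in SH. Its fall in hypoxia, at -1.03 ± 0.12 and -1.13 ± 0.12, started from different levels, and SH replicate 3 lay above the highest UN library. *Mcm10* fell by 6.23-fold in UH and 3.84-fold in SH.

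Among primase and polymerase genes, 6 of 9 were called lower for unsorted and 7 of 9 for sorted cells. *Pola1* encodes the catalytic subunit of polymerase α, which extends the RNA primer. The library values of *Pola1* were 18.3, 20.3 and 19.1 TPM in UN and 1.95, 2.67 and 2.27 in UH, against 19.4, 17.1 and 19.9 in SN and 4.26, 6.49 and 7.67 in SH. UN and SN overlapped, and UH was lower than SH in every library. UH vs UN gave a log2 fold change of -2.62 ± 0.18, adjusted p = 5.50e-07, and the mean of SH was 3.06-fold below that of SN (adjusted p = 5.09e-05). *Pold1*, for the catalytic subunit of polymerase δ, was widest in range after it. In UN, *Pold1* stood at 48.6, 50.2 and 45.9 TPM, in UH at 12.3, 14.5 and 8.72, in SN at 70.9, 79.9 and 70.8 and in SH at 15.5, 17.1 and 28.4. Its log2 fold changes were -1.97 ± 0.21, adjusted p = 1.56e-05 and -1.86 ± 0.21, adjusted p = 3.81e-05, with SH replicate 3 above the other SH libraries.

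*Pole* encodes the catalytic subunit of polymerase ε, which copies the leading strand. *Pole* was measured at 22.5, 22.6 and 25.4 TPM in UN, at 5.08, 4.84 and 3.82 in UH, at 32.4, 36.5 and 27.1 in SN and at 11.3, 10.6 and 15.4 in SH. It fell by 5.13-fold in UH and 2.58-fold in SH. The log2 ratio of *Pold1* to *Pole* was higher in UH than in UN by 0.31 but lower in SH than in SN by 0.54, without overlap of libraries in either case (exact permutation p = 0.1 each, 0.12 adjusted). The accessory subunit genes *Pold2* and *Pole2* differed, as *Pold2* fell by 5.23-fold in UH whereas *Pole2* fell by 1.99-fold. *Pold3* passed in both comparisons but under 2-fold, at -0.63 and -0.63.

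The subunits of primase, which lays down the RNA primer, gave unlike values. TPM values of 43.3, 38.02 and 38.96 in UN, 7.51, 7.93 and 9.87 in UH, 43.3, 43.1 and 31.8 in SN and 12.4, 12.7 and 16.8 in SH were recorded for *Prim1*. This catalytic subunit gene fell at -2.13 ± 0.16, adjusted p = 1.09e-06 in unsorted cells (UH vs UN) and -1.43 ± 0.16, adjusted p = 3.20e-05 in sorted cells (SH vs SN). *Prim2* was measured at 37.7, 37.9 and 40.2 TPM in UN, at 33.4, 34.1 and 35.5 in UH, at 38.3, 38.8 and 36.5 in SN and at 23.96, 27.1 and 21.9 in SH. *Prim2*, for the large subunit, did not pass in UH vs UN, at -0.16 ± 0.094, adjusted p = 0.18, although its UH libraries all lay below UN, and passed in SH vs SN at -0.62 ± 0.094, adjusted p = 2.86e-04. With median-of-ratios scaling the *Prim2* value in UH vs UN was 0.18, the opposite sign. *Pola2* changed by -1.49 ± 0.12 and -1.58 ± 0.12 on the log2 scale.

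All 6 clamp and clamp loader genes were called lower in UH vs UN, and 3 of 6 in SH vs SN, where the other 3 passed under 2-fold. *Pcna*, for the sliding clamp, was the most abundant of them, at 199.6 ± 19.2 TPM in UN, 81.4 ± 15.04 in UH, 278 ± 19.1 in SN and 81.6 ± 21.7 in SH. Its log2 fold changes were -1.30 ± 0.18, adjusted p = 1.11e-04 and -1.78 ± 0.18, adjusted p = 1.66e-05. The loader genes were widest in *Rfc3* and *Rfc4*. In UN, *Rfc3* stood at 65, 70.3 and 69.2 TPM, in UH at 15.7, 13.8 and 14.8, in SN at 57.6, 58.2 and 50.3 and in SH at 23.3, 26.6 and 28.5. The library values of *Rfc4* were 21.3, 17.6 and 18.7 TPM in UN and 8.41, 6.31 and 8.08 in UH, against 30.8, 30.4 and 26.3 in SN and 15.3, 16.7 and 20.7 in SH. *Rfc3* was highest in UN, whereas *Rfc4* was highest in SN and its SH libraries overlapped UN. *Rfc3* changed by -2.13 ± 0.10, adjusted p = 5.20e-08 in unsorted cells (UH vs UN) and -1.06 ± 0.10, adjusted p = 1.37e-05 in sorted cells (SH vs SN), and *Rfc4* by -1.24 ± 0.14, adjusted p = 3.22e-05 and -0.71 ± 0.14, adjusted p = 0.00225. *Rfc5* stood at 54.5, 65.8 and 59.1 TPM in UN, 16.4, 16.4 and 17.7 in UH, 58.8, 58.5 and 51.2 in SN and 24.3, 27.4 and 27.3 in SH. *Rfc1* and *Rfc2* fell by 2.60-fold and 2.54-fold in UH, and by 1.80-fold and 1.96-fold in SH.

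Of the 5 genes for single-strand binding and ligation, all were called lower in unsorted and 4 in sorted cells. *Fen1* encodes the flap endonuclease that trims Okazaki fragments, and *Lig1* the ligase that seals them. *Fen1* was measured at 36.97, 34.8 and 30.7 TPM in UN, at 8.20, 9.89 and 9.09 in UH, at 66.9, 59.4 and 43.7 in SN and at 11.6, 13.98 and 19.1 in SH. TPM values of 81.2, 82.3 and 96.2 in UN, 11.4, 15.6 and 16.96 in UH, 93.9, 82.7 and 76.7 in SN and 20.05, 19.9 and 27 in SH were recorded for *Lig1*. Both were lower in every hypoxic library, with changes of -1.81 ± 0.19, adjusted p = 1.29e-05 and -2.50 ± 0.16, adjusted p = 3.61e-07 in UH vs UN and of -1.86 ± 0.19 and -1.88 ± 0.16 in SH vs SN. The 3 subunits of replication protein A, which form 1 complex, differed in size of change. *Rpa2* fell most in UH vs UN (-1.95) and *Rpa1* most in SH vs SN (-2.10), whereas *Rpa3* fell by 2.23-fold in UH and 1.70-fold in SH. *Rpa3* was also lower in SN, at 25.7 ± 0.972 TPM, than in UN, at 46.5 ± 4.77.

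The deoxynucleotide supply genes fell most of the 8 roles in UH vs UN, with a median log2 fold change of -2.63, and all 5 were called lower in both hypoxia comparisons. *Rrm2*, for the small subunit of ribonucleotide reductase, had the largest fall of the 48 genes in UH vs UN. The library values of *Rrm2* were 85.2, 106 and 108 TPM in UN and 9.02, 9.48 and 10.3 in UH, against 73.5, 69.5 and 52.8 in SN and 13.8, 17.5 and 20.8 in SH. The mean of UH was 10.4-fold below that of UN, with a log2 fold change of -3.24 ± 0.17, adjusted p = 7.21e-08. SH was 3.76-fold below SN, at -1.85 ± 0.17, adjusted p = 7.05e-06, and SN was below UN in every library. *Rrm1*, for the large subunit, fell less, at -1.71 ± 0.12 and -1.49 ± 0.12. The log2 ratio of *Rrm2* to *Rrm1* therefore differed by -1.63 between UH and UN and by -0.40 between SH and SN, with no overlap of libraries in either (exact permutation p = 0.1 each, 0.12 adjusted).

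Thymidylate reaches DNA by synthesis through TYMS or by salvage through TK1. *Tyms* was the most abundant of the 48 genes in UN. *Tyms* was measured at 279, 249 and 232 TPM in UN, at 44.2, 36.3 and 39.9 in UH, at 186, 159 and 125 in SN and at 36.01, 41.4 and 47.5 in SH. In UN, *Tk1* stood at 139, 117 and 109 TPM, in UH at 18.3, 15.3 and 18.2, in SN at 187, 174 and 147 and in SH at 22.2, 21.98 and 37.8. *Tyms* was highest in UN and *Tk1* in SN, and both had their lowest mean in UH, although UH and SH overlapped for *Tyms*. Their log2 fold changes were -2.63 ± 0.15, adjusted p = 1.57e-07 and -2.75 ± 0.19, adjusted p = 6.49e-07 in UH vs UN, and -1.87 ± 0.15, adjusted p = 3.28e-06 and -2.63 ± 0.19, adjusted p = 1.55e-06 in SH vs SN. The log2 ratio of *Tk1* to *Tyms* was 1.19 higher in SN than in UN and 0.57 higher in SH than in UH (exact permutation p = 0.1 each, 0.12 adjusted). *Dut*, for the enzyme that removes dUTP, changed least of this role, at -1.21 ± 0.10 and -1.04 ± 0.10.

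All 3 chromatin copying genes were called lower in both hypoxia comparisons. UHRF1 recognizes hemimethylated DNA behind the fork and recruits the maintenance methyltransferase. TPM values of 92.2, 81 and 76.4 in UN, 11.9, 13.2 and 12.8 in UH, 128, 119 and 107 in SN and 27.5, 29.4 and 42.3 in SH were recorded for *Uhrf1*. It changed by -2.62 ± 0.15, adjusted p = 1.43e-07 in UH vs UN and by -1.83 ± 0.15, adjusted p = 3.51e-06 in SH vs SN. *Chaf1b* encodes a subunit of chromatin assembly factor 1, which deposits histones on new DNA. *Chaf1b* was measured at 46.6, 40.4 and 41.6 TPM in UN, at 17.1, 15.6 and 17.8 in UH, at 98.3, 95.4 and 93.6 in SN and at 24.5, 23.2 and 31.1 in SH. SN libraries were more than 2-fold above UN, at 1.14 ± 0.11, adjusted p = 1.89e-05. *Chaf1b* fell by 2.55-fold in UH and 3.65-fold in SH. Its partner *Chaf1a* fell by 3.93-fold and 2.87-fold.

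The 3 G1/S control genes did not move as a group. *Ccne1* encodes cyclin E1, which activates CDK2 to start S phase. In UN, *Ccne1* stood at 36.5, 38.2 and 36.7 TPM, in UH at 4.41, 6.20 and 5.57, in SN at 46.6, 42.8 and 34.8 and in SH at 7.11, 9.53 and 9.47. It was called lower in both comparisons, at -2.58 ± 0.15, adjusted p = 1.97e-07 and -2.13 ± 0.15, adjusted p = 1.46e-06. The library values of *Ccne2* were 25.7, 17.5 and 20.99 TPM in UN and 21.2, 23.4 and 38.6 in UH, against 25.4, 21.01 and 13.9 in SN and 14.6, 20.5 and 12.6 in SH. For *Ccne2*, which encodes the second E-type cyclin, the groups overlapped and UH replicate 3 was the highest library. *Ccne2* passed in neither comparison, at 0.32 ± 0.27, adjusted p = 0.355 in unsorted cells (UH vs UN) and -0.31 ± 0.27, adjusted p = 0.393 in sorted cells (SH vs SN). After median-of-ratios scaling its UH vs UN value was 0.67 with an adjusted p of 0.0474, which is past the threshold. Within libraries the log2 ratio of *Ccne1* to *Ccne2* went from 0.81 in UN to -2.32 in UH and from 1.07 in SN to -0.85 in SH, without overlap (exact permutation p = 0.1 each, 0.12 adjusted).

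*E2f1*, which encodes a member of the E2F transcription factor family, spanned the narrowest range of group means of the 48. *E2f1* was measured at 36.9, 40.9 and 38.8 TPM in UN, at 38.5, 34.98 and 36.4 in UH, at 46.5, 45.5 and 42.1 in SN and at 39.9, 40.9 and 38.3 in SH. Its log2 fold change was -0.083 ± 0.085, adjusted p = 0.466 in unsorted cells (UH vs UN) and -0.17 ± 0.085, adjusted p = 0.143 in sorted cells (SH vs SN), and neither passed. The median-of-ratios scaling gave 0.27 in UH vs UN, the opposite sign. Relative to the median of all genes, which was -0.19 in that comparison, *E2f1* was 0.11 higher on the log2 scale. Other genes of the family were not all as steady. From UN to UH the mean of *E2f2* went from 0.96 to 0.21 TPM, that of *E2f3* from 13.2 to 6.76 and that of *E2f8* from 23.1 to 8.66. *E2f4*, at 73.8 and 65.4 TPM, and *E2f6*, at 8.64 and 8.03, changed less.

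**Figure D4:**
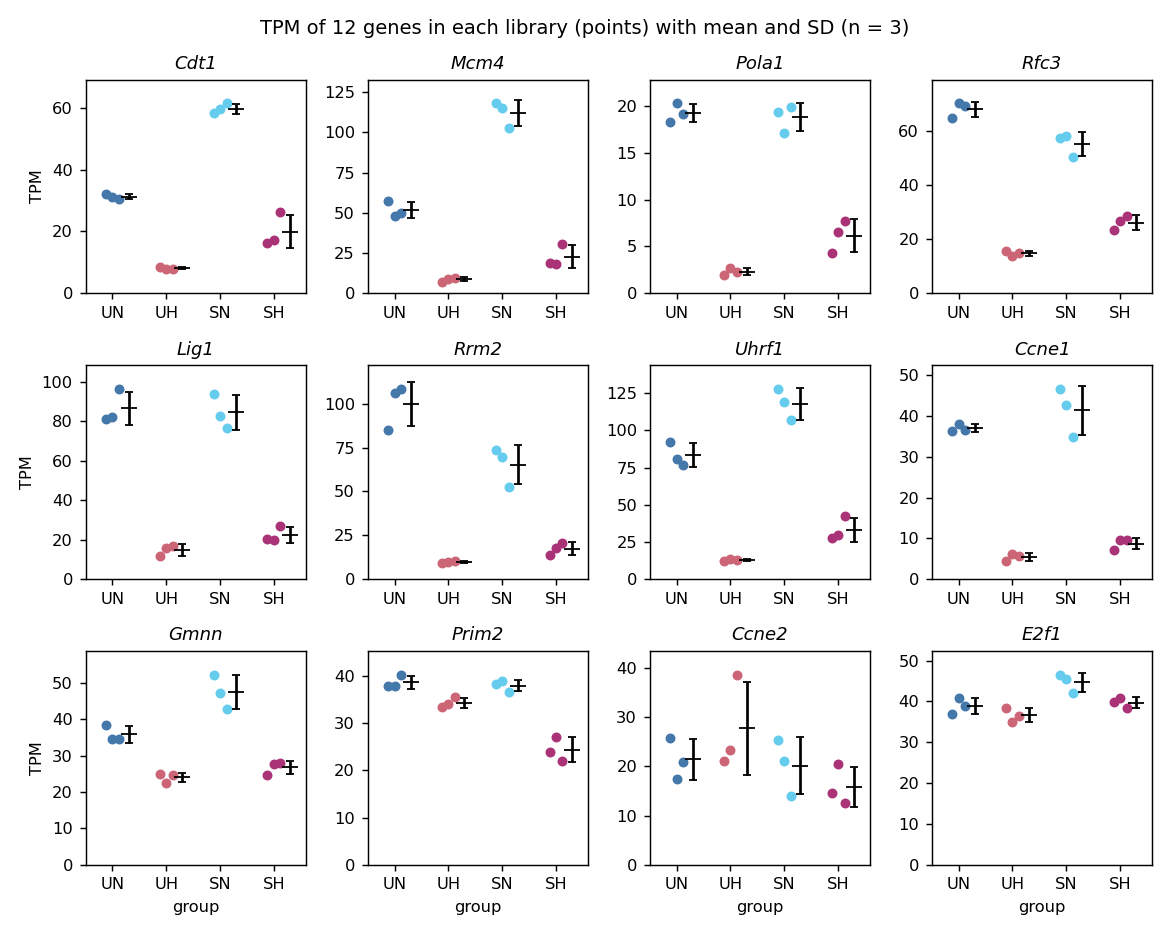
TPM (y axes, each from 0) of 12 replication genes in UN, UH, SN and SH, with points for libraries and a bar with whiskers for the mean and SD (n = 3). *Rrm2* drops from a mean of 99.8 TPM in UN to 9.59 in UH, whereas *E2f1* stays between 34.98 and 46.5 in all libraries.

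In normoxia, few replication genes differed by over 2-fold between sorted and unsorted cells. In SN vs UN, 2 of 48 were called higher and 0 lower, where 3.2% and 7.57% of all genes were. The 2 were *Mcm4*, at 1.10 ± 0.18, adjusted p = 6.41e-04, and *Chaf1b*, given above. At the adjusted p alone, 14 passed as higher, against 13% of all genes, and 5 as lower, against 20.9%. The larger of the other 12 gains were those of *Cdc45* (0.97), *Cdt1* (0.91), *Fen1* (0.70) and *Mcm3* (0.62). The 5 lower genes were *Rpa3* (-0.83), *Tyms* (-0.71), *Rrm2* (-0.61), *Rfc1* (-0.47) and *Rfc3* (-0.30). The median over the 48 was 0.23, and -0.06 over all genes. By role, the helicase genes had the same sign in all 12, with a median of 0.42, and the clamp and loader genes a median of -0.19. The fibroblast marker sum also differed between these groups, at 165 to 185 TPM in SN and 1013 to 4314 in UN. Of the 7 such markers tested, 4 were called lower in SN vs UN, *Col1a1*, *Col1a2*, *Col3a1* and *Pdgfra*. *Dcn* averaged 172 TPM in UN and 119 in SN, and *Pdgfrb* 44.7 and 43.8, so the list did not move as a whole. The part of these markers in the values above was not tested.

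In hypoxia, sorted cells had higher levels of many of these transcripts than unsorted cells. In SH vs UH, 12 of 48 genes were called higher and 0 lower, where 7.65% and 5.35% of all genes were, and 32 passed as higher and 4 as lower, where 28.3% and 13.4% did. The 12 were *Uhrf1* (1.30 ± 0.15), *Mcm4* (1.28 ± 0.18), *Gins2* (1.27 ± 0.17), *Pole*, *Mcm5*, *Cdc6*, *Cdt1*, *Mcm3*, *Mcm7*, *Mcm2*, *Rfc4* and *Pola1*, the last at 1.09 ± 0.18. The 4 lower genes were *Ccne2* (-0.75), *Pole2* (-0.61), *Prim2* (-0.49) and *Rpa3* (-0.45). The median over the 48 was 0.60, and that over all genes was 0.17. After median-of-ratios scaling 6 were called higher, with a median of 0.40. Without SH replicate 3, 8 were called higher. UH and SH also differed in the fibroblast marker sum, at 4547 to 6807 and 41.1 to 65.4 TPM, and in the mitochondrial share, and the part of either was not tested.

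The 4 group means came in the order SN, UN, SH and UH, from high to low, in 31 of the 48 genes. UN, SN, SH and UH was the order of 10 more. UH was the lowest group for 42 genes and SH for 6. SN was the highest for 33, UN for 14 and UH for 1, *Ccne2*. Neighbors in this order were often not told apart beyond their spread, since 29 of the 48 did not pass in SN vs UN and 12 did not pass in SH vs UH. Set against the starting population, SH still had 31 genes called lower than UN and 0 higher, where 11.3% and 8.97% of all genes were. The median log2 fold change in SH vs UN was -1.29 over the 48 and -0.04 over all genes. *Cdc45*, *Pold3*, *Rfc4*, *Ccne2* and *E2f1* were the 5 that did not pass in SH vs UN. These comparisons share groups and are not independent of each other.

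Whether the response differed between sorted and unsorted cells was tested directly, as the difference (SH − SN) − (UH − UN), in which positive values mark a smaller fall in sorted cells. By sign the difference was positive in 34 of the 48 genes and in 70.2% of all genes tested, so the sign alone sets the replication genes no further apart. In the positive direction 14 of the 48 passed, against 17.4% of all genes tested, and 5 of the 48 were called, against 8.08%. In the other direction 2 passed, against 4.51%, and 0 were called, against 2.18%. The median difference was 0.40 over the 48 genes and 0.25 over all genes. The called genes were *Rrm2* (1.39 ± 0.23, adjusted p = 0.00202), *Pola1* (1.12 ± 0.25, adjusted p = 0.00889), *Rfc3* (1.08 ± 0.15, adjusted p = 5.77e-04), *Cdc6* (1.05 ± 0.31, adjusted p = 0.0344) and *Mcm7* (1.04 ± 0.19, adjusted p = 0.00319). *Chaf1b* (-0.54 ± 0.16, adjusted p = 0.0343) and *Prim2* (-0.46 ± 0.13, adjusted p = 0.0298) had the larger fall in sorted cells.

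This difference depended on the scaling and on single libraries. With median-of-ratios scaling, which moved the all-gene median of the difference from 0.25 to 0.02, 4 genes passed as smaller falls and 5 as larger falls. *Rrm2*, *Pola1*, *Rfc3*, *Mcm7*, *Prim2* and *Chaf1b* were the 6 of the 16 that still passed. The called count was 3 in place of 5 without SH replicate 3, without SN replicate 3 or without UH replicate 1. Of the 16 that passed, only 6 still passed without SN replicate 3, 8 without UN replicate 2, and 9 each without UN replicate 3, UH replicate 2, SN replicate 1 or SN replicate 2.

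**Figure D5:**
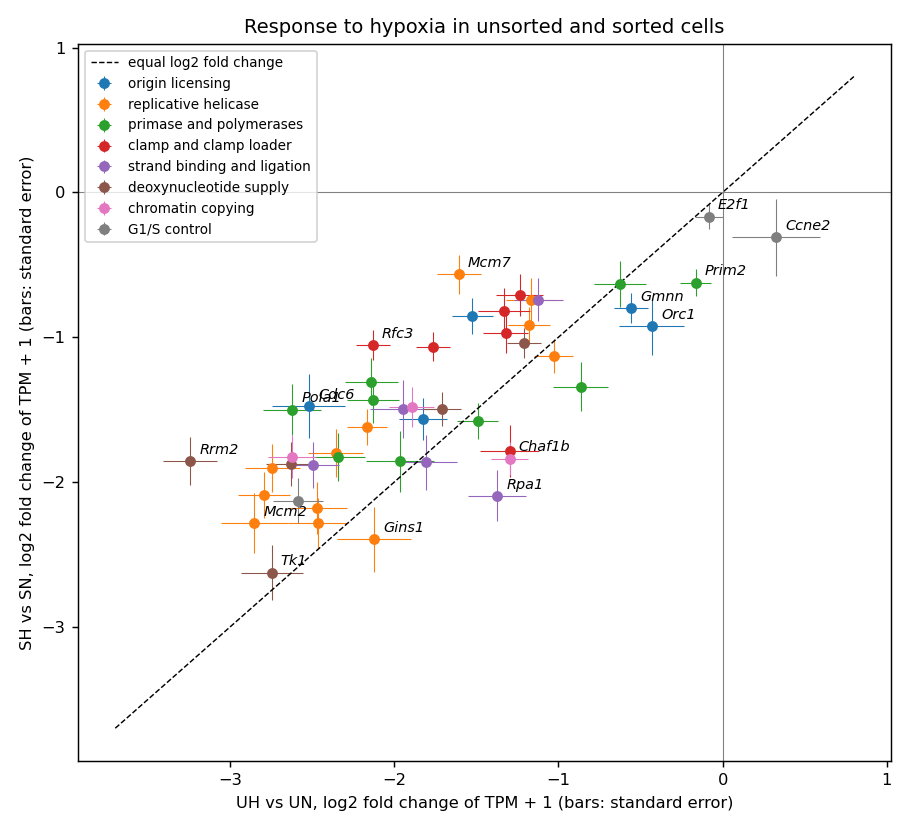
Log2 fold change of TPM + 1 in SH vs SN (y axis) against that in UH vs UN (x axis) for the 48 replication genes, colored by role, with bars for the standard error and a dashed line for equal changes. Most points lie in the lower left, and 34 of 48 lie above the line, as do 70.2% of all genes tested, with *Rrm2* at -3.24 and -1.85 and *Gins1* and *Rpa1* among those below it.

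Further genes of the same processes, taken from lists set out by function with earlier results known, were mostly lower as well. Of all genes tested, 11.8% were called lower and 5.46% higher in UH vs UN. In that comparison 10 of 15 other origin and helicase genes were called lower and 0 higher. *Dbf4*, which activates the CDC7 kinase at origins, changed by -2.14 ± 0.12, adjusted p = 1.53e-07, and *Topbp1* by -2.01 ± 0.16. Of 18 other fork and polymerase genes, 11 were called lower and 1 higher, the polymerase δ subunit gene *Pold4* (1.15 ± 0.19), with the exonuclease gene *Exo1* at -2.32 ± 0.18. Of 28 other nucleotide synthesis genes, 18 were called lower and 1 higher, the guanine nucleotide synthesis gene *Impdh1* (1.55 ± 0.10). The falls were led by *Shmt1*, which supplies one-carbon units to thymidylate synthesis, at -2.44 ± 0.15, adjusted p = 2.82e-07, and by the deaminase gene *Dctd* at -2.40 ± 0.23. Chromatin assembly genes were called lower in 7 of 8 cases, with *Hells* at -2.87 ± 0.23 and *Asf1b* at -2.32 ± 0.15. Of 9 replication checkpoint genes 2 were called lower, *Chek1* (-2.15 ± 0.24) and *Wee1* (-1.26 ± 0.18), and 8 passed as lower.

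In SH vs SN the counts called lower were 5 of 15 for other origin and helicase genes, 7 of 18 for fork and polymerase genes, 10 of 28 for nucleotide synthesis genes, 6 of 8 for chromatin assembly genes and 1 of 9 for checkpoint genes. *Pold4* (1.87 ± 0.19), *Poli* (1.44 ± 0.14) and *Impdh1* (1.54 ± 0.10) were the 3 called higher in these lists. Of all genes tested, 5% were called lower and 7.47% higher in SH vs SN. *Exo1* (-2.57 ± 0.18) and the helicase-nuclease gene *Dna2* (-2.63 ± 0.21) were the lowest of the fork genes there. Of 23 E2F, RB and G1 cyclin genes, 11 were called lower and 2 higher in UH vs UN, and 10 lower and 0 higher in SH vs SN. The 2 were the D-type cyclin genes *Ccnd2* (1.52 ± 0.17) and *Ccnd3* (1.02 ± 0.14). Genes named because they went up were singled out after their values were seen. Among those that fell, cyclin A2 (*Ccna2*) changed by -2.45 ± 0.11 in UH vs UN, and cyclin D1 (*Ccnd1*), the G1 cyclin, by -2.28 ± 0.17 there and -1.998 ± 0.17 in SH vs SN.

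Genes of mitosis, the later step of the same cell cycle, were also followed. In UH vs UN all 12 were called lower, where 11.8% of all genes were, with a median of -1.94. In SH vs SN 2 of 12 were called lower, *Ccnb2* (-1.21 ± 0.10, adjusted p = 5.01e-06) and *Cdk1* (-1.02 ± 0.16, adjusted p = 3.23e-04), where 5% of all genes were. At the adjusted p alone, 8 passed as lower and 2 as higher, where 19.5% and 21.5% of all genes did. The 2 higher were *Aurka* (0.53 ± 0.11) and *Cdc20* (0.43 ± 0.13), and the median over the 12 was -0.60. Their summed TPM was 874 to 968 in UN and 199 to 255 in UH, but 851 to 1084 in SN and 628 to 672 in SH. In the test of the difference of responses, all 12 passed and 9 were called with a positive difference, where 17.4% and 8.08% of all genes were. Among the 48 replication genes, 14 passed in that direction and 5 were called. For *Aurka*, *Cdc20* and *Cenpe* this was not a smaller fall, since their means were higher in SH than in SN, at 89.2 and 61.6, 54.7 and 40.3, and 26.4 and 20.3 TPM. The median difference was 1.28 for the mitosis genes and 0.40 for the replication genes. The mitosis regulator genes *Cdc20* (2.86 ± 0.18, adjusted p = 3.61e-06) and *Aurka* (2.37 ± 0.16, adjusted p = 7.33e-06) had the largest differences. With median-of-ratios scaling 9 of the 12 mitosis genes passed, with a median of 0.96, against 0.07 for the replication genes. The promoter windows of the 2 groups differed in their letters as well. An E2F match was present in 1 of 11 mitosis windows against 13 of 39, and the cell cycle homology region, searched as TTTGAA or TTCGAA on both strands, in 9 of 11 (81.8%) against 6 of 39 (15.4%), where 19.4% of all windows and 13.8% of the windows of genes tested held it.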

How the data were processed

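Per the labels and the study's methods, RNA was sequenced from stranded mRNA libraries as paired ends on an AVITI instrument, and the authors processed the reads with nf-core/rnaseq 3.12.0 on mm10. The deposited table holds Salmon gene TPM, which sum to 1000000 in each library. The annotation and strand setting are not given in the sources used here. As TPM are shares of a fixed total, a change in a few abundant transcripts shifts all others, which the scaling alternatives bear on. Read depth is unknown, and no interval or count test was used.

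TPM were converted to log2(TPM + 1), and genes with a mean of at least 0.1 TPM entered a linear model (limma 3.58.1, R 4.3.3) that had 1 mean per group over all 12 libraries, moderation with a trend and Benjamini-Hochberg adjustment over 18909 genes. A fold change on this scale understates the change of low genes. Within-library ratios and shares were compared by exact permutation tests. Values by library are given for the 2 members with the widest span in each role and for those that differed in response. Up to 3 called genes of each pathway list are named by size of change. The members and lists were chosen with earlier results of these data known. The fit was tested on simulated data. Alternatives covered the pseudocount, filters, scaling, moderation, replicate block, fold threshold and single libraries. Promoter windows were those listed first for each gene in RefSeq, searched with Python 3.11.15.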

Additional observations from a re-analysis of the deposited data

Results flagged for a closer look

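The test of the difference of responses, (SH − SN) − (UH − UN), singled out 16 of the 48 replication genes, in which the response to hypoxia of sorted cells differed from that of unsorted cells at an adjusted p below 0.05 in limma. A smaller fall in sorted cells was found for 14 of them, where 17.4% of all genes tested passed with a positive difference. On the log2 scale the differences were 1.39 for *Rrm2*, 1.12 for *Pola1*, 1.08 for *Rfc3*, 1.05 for *Cdc6*, 1.04 for *Mcm7*, 0.84 for *Gins2* and 0.83 for *Pole*. They were 0.80 for *Uhrf1*, 0.75 for *Tyms*, 0.71 for *Mcm5*, 0.70 for *Rfc5*, 0.70 for *Prim1*, 0.67 for *Orc6* and 0.55 for *Mcm3*. A larger fall in sorted cells was found for *Prim2*, at -0.46, and *Chaf1b*, at -0.54, where 4.51% of all genes passed with a negative difference. With median-of-ratios scaling 6 of the 16 still passed.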

How the results depend on the processing

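Among members with values given by library, every one called in UH vs UN or SH vs SN passed there under all alternatives run. Over all 48 genes, calls lower ranged from 40 to 41 and from 32 to 36 when single libraries were left out. In UH vs UN, the scalings moved the size of the change, with 31 called lower under median-of-ratios scaling and 34 under quantile normalization. The median there was -1.48 under the former and -1.52 under the latter, -1.92 with a pseudocount of 0.1, -1.88 after rescaling without mitochondrial genes and -1.86 to -1.76 when libraries were left out. *Prim2* and *E2f1* changed sign in UH vs UN, to 0.18 and 0.27 under median-of-ratios scaling and to 0.16 and 0.24 under quantile normalization. *Orc1* passed there without UH replicate 3, at -0.60, and *Ccne2* under median-of-ratios scaling and quantile normalization, at 0.67 under each, while *E2f1* passed in SH vs SN after rescaling without mitochondrial genes, at -0.24. In SN vs UN, median-of-ratios scaling called 4 higher with a median of 0.34, and a fold threshold of 1.5 called 7 higher and 3 lower. In SH vs UH, the same scaling called 6 higher with a median of 0.40, and the threshold of 1.5 called 26 higher and 2 lower. For the difference of responses, it called 1 higher and 1 lower with a median of 0.070, quantile normalization called 1 higher with a median of 0.18, and the threshold of 1.5 called 13 higher. Leaving out libraries gave 3 to 5 called higher and medians from 0.25 to 0.46 for this difference. The log2 ratio of *Mcm10* to *Mcm2* in SH vs UH ranged from -0.38 to 0.0022 when libraries were left out. The causes were not tested. With a replicate block, 41 and 34 members were called lower in UH vs UN and SH vs SN and 5 higher in the difference, as without it, and 7 other member values, none in UH vs UN or SH vs SN, no longer passed. Same-numbered libraries had residual correlations of -0.063 to 0.14, so the numbers were not taken as pairs. Depth cannot be read from TPM, so the counting error of low genes such as *Orc1* is unknown.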
